A study of Homo sapiens with 21 samples.

Results

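The density of HOXD13-HA regions around each gene was measured in A375, a human melanoma line, against the density of open chromatin regions in the same line. Of the 21 samples of the series, 2 gave these values: the library of A375 cells carrying HA-tagged HOXD13, and the ATAC-seq library of A375 cells carrying GFP. For each of 19974 protein-coding genes on the autosomes and the X chromosome, the regions of both lists with their midpoint in the gene body or within 50 kb of it were counted. A count expected from the length of this window and its number of ATAC regions was then set beside the HOXD13-HA count. By this measure 898 genes (4.5%) were HOXD13-rich, meaning at least 5 HOXD13-HA regions and at least 2 times the expected number. Of the 1017 genes with 20 or more ATAC regions, called open here, 88 (8.65%) had no HOXD13-HA region. Neighbouring genes share regions, and the 898 rich genes fell into 702 loci and the 88 open genes without HOXD13-HA into 65.

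The study took 4 human melanoma lines, A375, 501mel, SKMEL-5 and SKMEL-147. Each line has a library of open chromatin and one or more of histone H3 K27 acetylation (K27ac). For CTCF the labels name SKMEL-5 and 501mel alone. A HOXD13 construct or a hairpin, for overexpression or silencing, is named for A375 alone. HOXD13-HA and GFP are the constructs of the A375 cells compared here, and K27ac was also mapped in A375 with the hairpins shH2 and shH3 and in 2 replicates of shNTC, read as the non-targeting hairpin. The cells were cultured for 72 h, with or without 1 µg/ml doxycycline to switch on the constructs, and the labels do not tie the drug to single samples. Openness is that of the GFP cells throughout, since ATAC-seq was given for these and not for the cells with tagged HOXD13. The labels do not say whether the HOXD13-HA library came from ChIP-seq or CUT&Tag, and the HA library of the GFP cells, which measures the antibody's background, was not analysed here. HOXD13-HA and ATAC of A375-GFP had 1 library each, and of the 15 lists used only shNTC K27ac had a replicate, so no difference between groups of genes below has a p-value.

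HOXD13 is a homeobox transcription factor of the posterior HOX group. It patterns the distal limb and the urogenital tract during development, and HOX proteins of this group bind AT-rich sites. ATAC-seq marks DNA that a transposase can reach, mostly promoters and enhancers, and K27ac marks those of them that are active. A region list records where reads pile up above background, and counts of regions follow how long a stretch of DNA is and how much of it is open.

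The HOXD13-HA list held 29176 regions with a median width of 298 bp and the A375-GFP ATAC list 118398 regions of 584 bp. The 13 other lists held 39473 to 163102 regions. No read counts come with the lists, so the depth of every library is unknown and a missing region may be a region that was not deep enough to be called. Markers within 2 kb of A375-GFP regions were those of a melanoma line in part: K27ac lay at 6 of 10 melanocyte markers and ATAC at all 10, while TYR, DCT, TYRP1 and SLC45A2 had no K27ac. K27ac also lay at 3 of 8 keratinocyte, 4 of 6 fibroblast, 5 of 7 endothelial, 3 of 7 T cell and 1 of 6 hepatocyte markers. The HOXD13 gene itself had 2 HOXD13-HA regions and 12 ATAC regions, against 1.11 expected HOXD13-HA regions.

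Sequences of 3 promoters are shown first, because they lie in loci with the highest standardised excess of HOXD13-HA, a HOXD13-HA region overlaps them, and each holds a HOX-type motif inside that region. The motifs searched on both strands were TTTATTG and TTTACGA, described for HOX13 proteins, and TTTATGG, described for posterior HOX proteins. Capitals mark the motif or its reverse complement. The sequences are those of RefSeq for GRCh38.p14, from 250 bases before to 50 bases after the gene start, written 5′ to 3′ along the gene. KRTAP3-1 lies at chr17:41009079-41009378 on the minus strand, HOXC5 at chr12:54016638-54016937 on the plus strand with the same window listed for HOXC4, and SLC30A10 at chr1:219959049-219959348 on the minus strand.
KRTAP3-1: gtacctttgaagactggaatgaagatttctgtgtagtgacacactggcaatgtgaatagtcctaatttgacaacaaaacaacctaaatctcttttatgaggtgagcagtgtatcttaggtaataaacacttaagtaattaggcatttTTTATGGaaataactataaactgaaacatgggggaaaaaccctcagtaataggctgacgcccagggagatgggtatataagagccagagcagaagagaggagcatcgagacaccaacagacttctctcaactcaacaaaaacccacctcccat
HOXC5: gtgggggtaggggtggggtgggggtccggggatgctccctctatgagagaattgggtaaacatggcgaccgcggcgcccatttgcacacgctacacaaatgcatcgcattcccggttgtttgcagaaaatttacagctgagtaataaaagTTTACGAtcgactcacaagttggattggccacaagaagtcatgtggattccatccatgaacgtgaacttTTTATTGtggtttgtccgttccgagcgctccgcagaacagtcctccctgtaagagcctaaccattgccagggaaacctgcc
SLC30A10: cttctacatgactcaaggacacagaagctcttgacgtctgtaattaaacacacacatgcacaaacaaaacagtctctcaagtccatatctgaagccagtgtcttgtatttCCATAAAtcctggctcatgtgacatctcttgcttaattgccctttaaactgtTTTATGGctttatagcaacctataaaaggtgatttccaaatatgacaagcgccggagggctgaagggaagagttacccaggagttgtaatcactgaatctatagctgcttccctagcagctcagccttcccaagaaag

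KRTAP3-1 encodes a keratin-associated protein of the hair shaft, and its promoter held 1 TTTATGG under a HOXD13-HA region of 3.93-fold enrichment, a value computed by the authors, as are all folds of regions below. It overlapped no ATAC and no K27ac region. The HOXC5 and HOXC4 promoter held 1 TTTACGA and 1 TTTATTG under a region of 4.73-fold enrichment that was also open and acetylated. The promoter of SLC30A10, a manganese exporter, held TTTATGG once on either strand under a region of 4.43-fold enrichment, with neither ATAC nor K27ac.

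Promoters were a small part of the binding. A HOXD13-HA region overlapped 196 of the 15812 promoters with a RefSeq sequence (1.24%), 46 of the 707 such promoters of HOXD13-rich genes (6.51%) and 0 of the 64 of open genes without HOXD13-HA. The choice of the genes favours a high share in rich genes and fixes that of 0. Any of the 3 motifs stood in 57 of the 196 promoters with HOXD13-HA (29.1%), against 360 of the 10644 promoters with ATAC and no HOXD13-HA (3.38%), and in 5.27% of all promoters. TTTATTG stood in 17.3% of the promoters with HOXD13-HA and 1.70% of those with ATAC alone, TTTATGG in 11.2% and 1.17%, and TTTACGA in 3.06% and 0.536%. Base composition moved with this difference, with a median GC content of 57.5% in promoters with HOXD13-HA and 66.0% in those with ATAC alone. Weighted to the GC classes of the promoters with HOXD13-HA, the share with ATAC alone was 6.90%. Of the 46 rich promoters with HOXD13-HA, 14 held a motif, and in 12 of them the motif lay inside a HOXD13-HA region. Among all 707 promoters of rich genes, 45 held a motif (6.36%), and among open genes without HOXD13-HA 3 of 64 did (4.69%). Both shares lay near the 5.27% of all promoters.

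Over all genes, more open genes more often had HOXD13-HA regions. A gene window held a median of 1 HOXD13-HA region (mean 1.62, highest 54) and a median of 9 ATAC regions (highest 76), and 12027 of the 19974 genes (60.2%) had at least 1 HOXD13-HA region. Of the 341 genes without an ATAC region 9.38% had a HOXD13-HA region, with a 95% Wilson interval of 6.73 to 12.9%. The share was 59.5% (58.4 to 60.6%) at 5 to 9 ATAC regions, 72.5% (70.5 to 74.5%) at 15 to 19, 88.9% (86.5 to 91.0%) at 20 to 29 and 97.7% (94.2 to 99.1%) at 30 to 39. At 40 or more it was 98.9% (94.2 to 99.8%), that is 93 of 94 genes. These intervals cover counting error only and take genes as independent, although neighbours share regions.

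**Figure D1:**
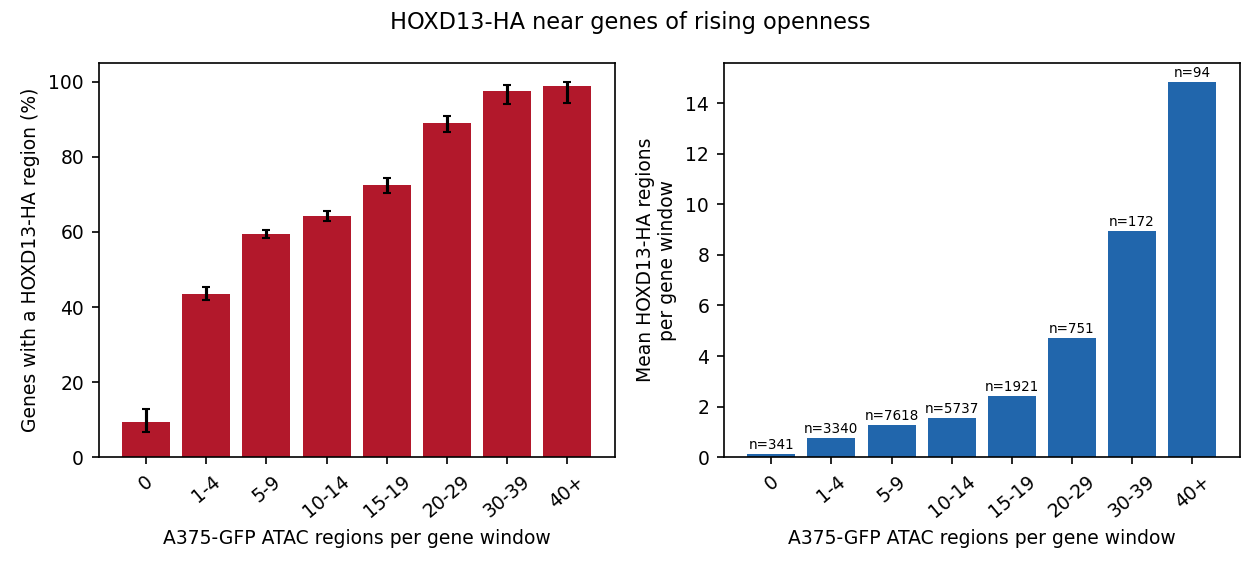
HOXD13-HA in A375 genes grouped by their number of A375-GFP ATAC regions (gene body and 50 kb on both sides). Left, the share of genes with at least 1 HOXD13-HA region, with 95% Wilson intervals as bars; right, the mean number of HOXD13-HA regions with the number of genes (n). The share climbs from 9.38% with no ATAC region to 98.9% with 40 or more.

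The HOXD13-HA count followed window length more closely than openness. Spearman's rank correlation across genes, which are not independent, was 0.44 between HOXD13-HA and window length, 0.30 between HOXD13-HA and ATAC, and 0.33 between ATAC and window length. In the negative binomial regression behind the expected counts, the coefficient was 1.06 (SE 0.0183) for the natural log of window length and 0.45 (SE 0.0157) for the natural log of the ATAC count plus 1. HOXD13-HA regions were thus close to proportional to length and rose less than proportionally with ATAC regions. The sum over genes above 1000 kb long was 0.483 times the expected sum, so the regression expects too many regions at the longest genes. Expected counts of single long genes below carry this limit, and the sums of 3 lists of long adhesion genes are also given against class means.

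**Figure D2:**
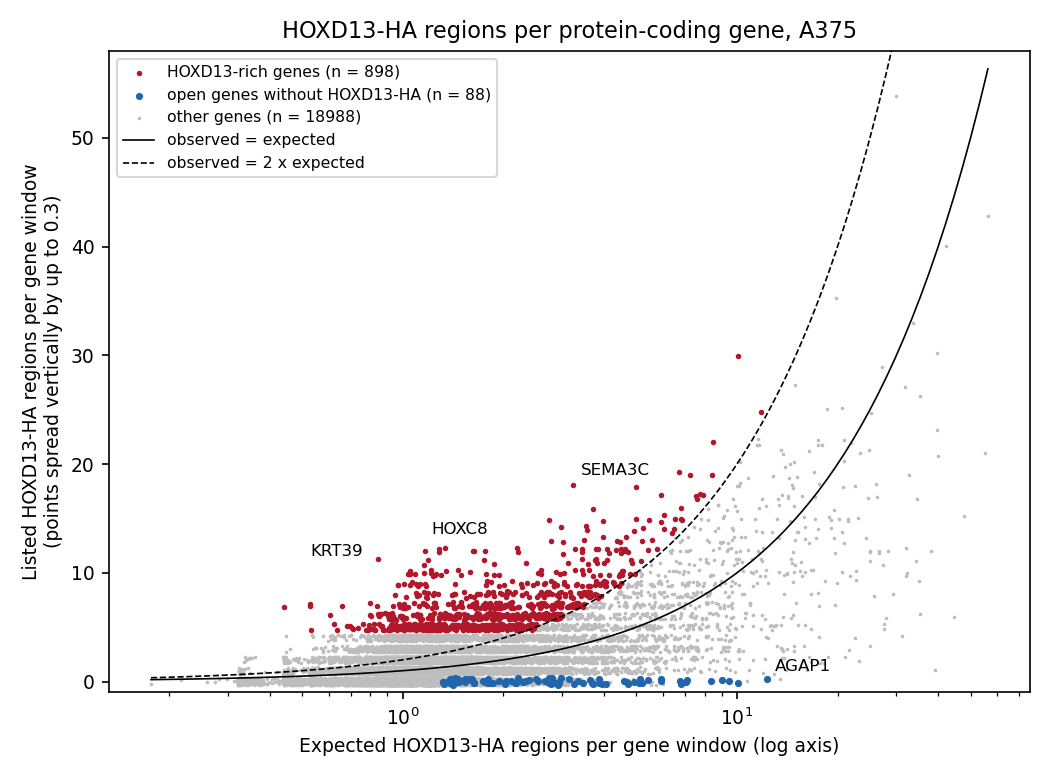
HOXD13-HA regions listed per gene window (vertical, regions) against the number expected from window length and ATAC count (horizontal, log axis), 1 point per protein-coding gene. The 898 HOXD13-rich genes lie on or above the dashed line of 2 times the expected number with at least 5 regions, and the 88 open genes without HOXD13-HA lie at 0, AGAP1 farthest right at 12.3 expected regions.

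HOXD13-rich genes were longer and stood in emptier neighbourhoods than genes in general. Their median length was 82.1 kb, against 24.2 kb for all genes, with a median of 6 against 1 HOXD13-HA regions and 11 against 9 ATAC regions. The rule of at least 5 regions favours longer windows and fixes a high HOXD13-HA count. Rich genes made up 1.61% of genes up to 10 kb long, 13.5% at 100 to 300 kb and 3.13% at 300 to 1000 kb. The sums in these classes were 0.895, 1.10 and 0.857 times expected. A median of 8 protein-coding genes lay within 500 kb of a rich gene, against 13 for all genes. Between 50 and 500 kb from rich genes there were 28.7 HOXD13-HA regions per 100 ATAC regions, against 16.6 for all genes. These flanks can hold the windows of other rich genes, and the comparison was not matched for the number of neighbouring genes. In their own windows, genes with 6 to 10 protein-coding genes within 500 kb had 22.4 HOXD13-HA regions per 100 ATAC regions. Within rich windows 5029 different HOXD13-HA regions were counted, 17.2% of the list, and the median distance from one to the next was 7859 bp, against 18576 bp in the whole list, which the choice of windows with many regions favours. Just inside the threshold stood S100Z, FRYL and HRH1 with ratios of 2.00, and just outside it ARHGAP18, PKIG and SUSD1 with ratios of 1.99 to 2.00.

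Most regions of rich genes did not lie in open chromatin of the GFP cells. Of the 5029 regions 33.7% overlapped an ATAC region and 30.1% an A375-GFP K27ac region, while 54.9% overlapped neither. In the whole HOXD13-HA list the shares were 34.1%, 22.2% and 58.5%. The overlap with open chromatin was thus close to that of the whole list, and the overlap with K27ac was higher. Regions near genes are the closer comparison for K27ac: 25.2% overlapped it in the windows of all genes. In windows of no rich gene 23.6% did. Along genes of at least 10 kb with a known strand, HOXD13-HA was counted in 10 equal parts of the gene body, where the 647 such rich genes held 28.8 to 39.8 regions per Mb, against 10.6 to 13.2 in the 11551 such genes overall. Both kinds of region were densest in the 2 kb before the gene start, HOXD13-HA with 54.9 per Mb in rich genes and 13.9 in all genes, and ATAC with 161 in rich genes and 169 in all genes. HOXD13-HA per 100 ATAC regions was 34.1 there in rich genes and 8.22 in all genes, below each of the 10 parts of the gene body in both groups.

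Lists that played no part in choosing the genes differed between rich genes and open genes without HOXD13-HA mostly in K27ac. For each list the same regression on window length and A375-GFP ATAC count gave an expected sum. K27ac of A375-GFP stood at 1.08 times the expected sum in rich genes and 0.536 times in open genes without HOXD13-HA, against 0.845 in open genes with HOXD13-HA and 0.959 in all genes. Gene by gene, 47.1% of the rich genes and 13.6% of the open genes without HOXD13-HA held more A375-GFP K27ac than expected, against 30.5% of open genes with HOXD13-HA and 37.2% of all genes. With the hairpins the values were 1.26 for shH2 and 1.22 for shH3 in rich genes, and 0.763 and 0.753 in open genes without HOXD13-HA. The K27ac of A375-shNTC gave 1.13 and 1.14 in the 2 replicates for rich genes and 0.722 and 0.723 for open genes without HOXD13-HA. The order was alike in the other lines, most widely in SKMEL-147, with 1.51 in rich genes and 0.610 in open genes without HOXD13-HA.

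Open chromatin of the other lines differed less and in no single direction. ATAC of SKMEL-5 stood at 0.955 times the expected sum in rich genes and 0.893 in open genes without HOXD13-HA. ATAC of SKMEL-147 stood at 0.991 times the expected sum in both groups, and ATAC of 501mel at 0.928 in rich genes and 1.05 in open genes without HOXD13-HA. CTCF, the insulator protein, was lower in rich genes than expected, 0.810 in SKMEL-5 and 0.824 in 501mel, against 1.06 and 0.996 in open genes without HOXD13-HA. K27ac regions in both shNTC replicates and in neither hairpin list made up 2762 of 7082 in rich windows (39.0%) and 483 of 1102 in open windows without HOXD13-HA (43.8%), against 39.6% in the windows of all genes. The rich share was thus near that of all genes.

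**Figure D3:**
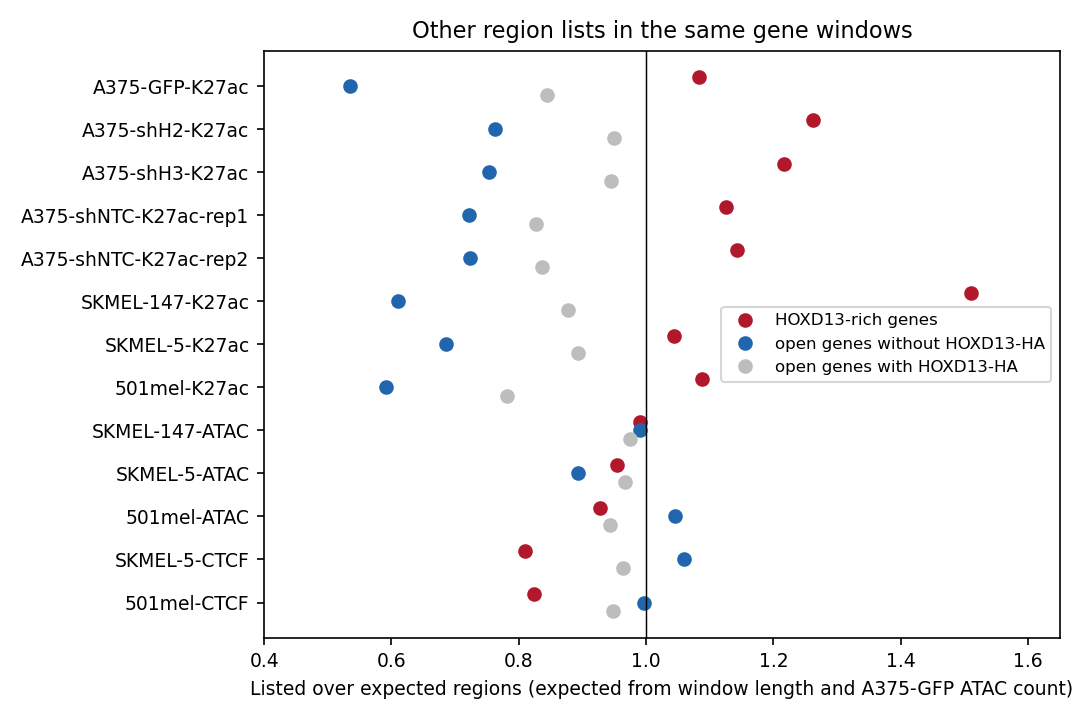
Listed over expected regions (horizontal, ratio of sums; the vertical line is 1) of 13 region lists in the windows of HOXD13-rich genes (n = 898), open genes without HOXD13-HA (n = 88) and open genes with HOXD13-HA (n = 929). In the 8 K27ac lists the rich genes lie above 1, at 1.04 to 1.51, and the open genes without HOXD13-HA below it, at 0.536 to 0.763.

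Chromosomes differed. HOXD13-HA per 100 ATAC regions was highest on chromosome 13 (37.0) and 4 (34.6) and lowest on 19 (8.86), 22 (10.9) and X (14.1). Against the expected sum, chromosome 13 stood at 1.34 and chromosomes 19, 22 and X at 0.603, 0.574 and 0.423. Rich genes made up 8.88% of the genes on chromosome 13, 0.689% on 19, 0.222% on 22 and 0.472% on X. Chromosome 1 held 136 rich genes (6.60% of its genes) and 8 of the 25 named loci. The crowding of genes moved with the same values: the HOXD13-HA sum was 0.984 times expected in genes with at most 5 protein-coding genes within 500 kb, 1.20 times with 6 to 10, and 0.583 times with 41 or more, so the emptiest class was not the highest. With that number added to the regression, the number of HOXD13-rich genes was 853, of which 793 were among the 898, and with chromosome added it was 854, of which 804 were among the 898.

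The 25 loci with the highest standardised excess of HOXD13-HA held 5 to 18 HOXD13-HA regions each, 5.58 to 13.1 times the expected number. Of their 239 regions 78 overlapped ATAC, 78 overlapped K27ac and 130 overlapped neither. In 14 of the 25 there were more HOXD13-HA than ATAC regions, and in 12 no HOXD13-HA region lay in the gene body of the gene that names the locus. The loci are given below by what their genes do, with hg38 coordinates.

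**Figure D4:**
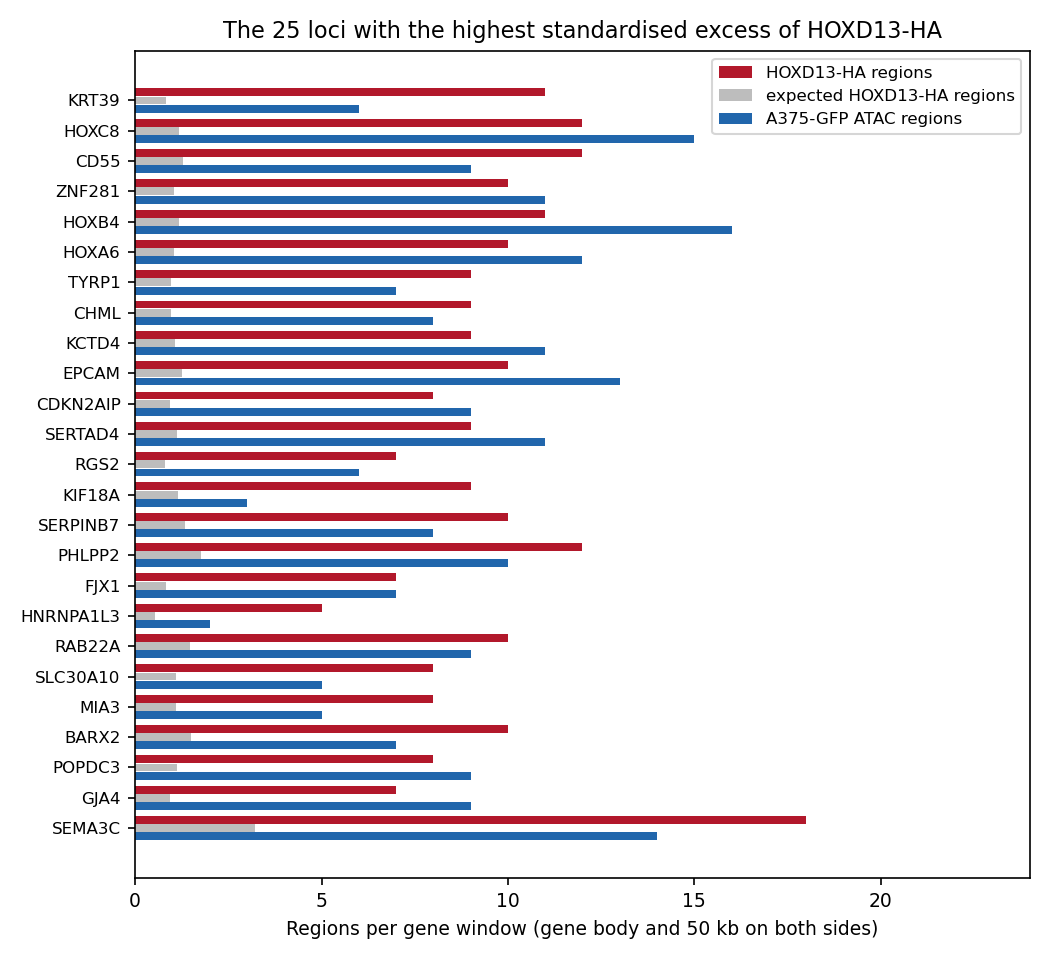
HOXD13-HA regions, expected HOXD13-HA regions and A375-GFP ATAC regions (bars, regions per gene window) at the 25 loci with the highest standardised excess, from the top down. HOXD13-HA bars run from 5 regions at HNRNPA1L3 to 18 at SEMA3C, and the expected bars from 0.533 to 3.23.

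The HOX clusters, the genes that lay out the body axis, took 3 of the 25 places. HOXC8 (chr12:54008985-54012769) had 12 HOXD13-HA regions with an exact 95% Poisson interval of 6.20 to 21.0, which covers counting error only, against 1.17 expected and 15 ATAC regions. Its strongest region, of 20.1-fold enrichment at chr12:54033278-54034430, was open and acetylated, as were most in this locus: 7 of the 12 overlapped ATAC and 11 overlapped K27ac. HOXA6 (chr7:27145396-27147774) had 10 HOXD13-HA regions, 1.05 expected and 12 ATAC regions, and its strongest region, of 20.3-fold enrichment at chr7:27139838-27140901, overlapped neither ATAC nor K27ac. HOXB4 (chr17:48575507-48578350) had 11 HOXD13-HA regions, 1.19 expected and 16 ATAC regions. K27ac in the HOXC8 window was listed with 17 regions with shH2 and 15 with shH3, against 20 and 21 in the shNTC replicates, and with 40 in A375-GFP. These lists differ in length, 43634 and 51838 regions with the hairpins against 85977 and 80242 in the shNTC replicates, so a lower count with the hairpins does not by itself show a change at a locus.

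Not every HOX cluster was rich. Over all 39 HOX genes the HOXD13-HA sum was 6.63 times the expected sum, but the genes of a cluster share windows and all 39 rest on 43 different regions. All 11 HOXA genes, 8 of 10 HOXB genes and 7 of 9 HOXC genes were rich, against 0 of 9 HOXD genes, the cluster of HOXD13 itself. HOXD genes had 1 to 3 HOXD13-HA regions and 5 to 14 ATAC regions, at 1.36 to 3.12 times the expected number, and the cluster held 3 different HOXD13-HA regions. A375-GFP K27ac was listed with 5 to 7 regions per HOXD gene window, against 11 to 28 in HOXA, 4 to 32 in HOXB and 16 to 41 in HOXC windows, so the range of HOXB overlaps that of HOXD.

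Keratin genes led the whole order. KRT39 (chr17:40958417-40966948), a type I hair keratin, had 11 HOXD13-HA regions (5.49 to 19.7), 0.840 expected and 6 ATAC regions. None of the 11 overlapped an ATAC region and 1 overlapped K27ac, and the enrichment of the strongest was 6.98-fold at chr17:41013127-41013858. KRT23, KRT40, KRT12, KRT20 and keratin-associated protein genes share this locus. K27ac there was listed with 0 regions with shH2 and 1 with shH3, against 3 and 2 in the shNTC replicates, with 7 in A375-GFP and with 12 in SKMEL-147. Among all 55 keratin genes, 14 of the 28 on chromosome 17 (type I) were rich, against 0 of the 27 on chromosome 12 (the type II keratins and KRT18), where windows held 0 to 3 HOXD13-HA regions. KRT8, a keratin of simple epithelia, had 0 HOXD13-HA regions with 15 ATAC regions. The keratin sum was 3.01 times expected over 35 different regions, and 1.72 to 5.30 times over the alternative settings.

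SERPINB7, BARX2, EPCAM and GJA4 were also among the 25 loci. SERPINB7 (chr18:63753057-63805370), an epidermal protease inhibitor, had 10 HOXD13-HA regions against 1.35 expected and 8 ATAC regions, the strongest of 15.1-fold enrichment. BARX2 (chr11:129375233-129452279), a homeobox factor, had 10 against 1.50 expected, 8 of them in the gene body and 1 in ATAC, with a strongest enrichment of 13.5-fold. EPCAM (chr2:47369311-47387020), an epithelial adhesion molecule, had 10 against 1.25 expected. GJA4, a gap junction connexin of vascular endothelium, had 7 against 0.932 expected. K27ac was sparse at SERPINB7 and BARX2, with 2 A375-GFP regions each, against 5 at GJA4 and 12 at EPCAM.

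Of pigment cell genes, TYRP1 (chr9:12693385-12710285), an enzyme of melanin synthesis, had 9 HOXD13-HA regions against 0.966 expected and 7 ATAC regions. Of these 7 lay downstream of the gene and 5 overlapped ATAC. Its window held 3 K27ac regions with each hairpin, against 3 and 5 in the shNTC replicates, and 1 in A375-GFP, 15 in 501mel, 16 in SKMEL-5 and 5 in SKMEL-147. In the wider surroundings, 50 to 500 kb from TYRP1, there were 77.3 HOXD13-HA regions per 100 ATAC regions, the highest of the 25 loci. MITF, the master regulator of melanocytes, had 18 HOXD13-HA regions against 4.99 expected with 26 ATAC regions, and TFAP2A, a factor of the neural crest, had 8 against 1.43. PAX3, MITF's upstream activator, had 0 against 1.37 expected, and PMEL, a melanosome fibre protein, 0 against 1.16.

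Secreted and signalling genes included SEMA3C (chr7:80742538-80922389), a class 3 semaphorin of axon and vessel guidance. It had 18 HOXD13-HA regions (10.7 to 28.4), the most of the 25 loci, against 3.23 expected and 14 ATAC regions, with 17 in the gene body and enrichments of 1.70 to 6.30-fold. K27ac was listed with 17 regions with shH2 and 19 with shH3, against 26 and 23 in the shNTC replicates, and with 29 in A375-GFP. CD55 (chr1:207321678-207360966), which shields cells from complement, had 12 HOXD13-HA regions against 1.29 expected, all outside the gene body. Its K27ac count was 9 with each hairpin, against 26 and 29 in the shNTC replicates, and 8 in A375-GFP. PHLPP2, a phosphatase of AKT, had 12 against 1.76 expected, and RGS2, a brake on G protein signalling, had 7 against 0.797. FJX1, the human relative of fly four-jointed, had 7 against 0.840.

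The other loci hold housekeeping, trafficking or little-studied genes. ZNF281 (chr1:200404951-200410036), a zinc finger transcription factor, had 10 HOXD13-HA regions against 1.04 expected, all outside the gene body. RAB22A, an endosomal GTPase, had 10 against 1.47, KIF18A, a mitotic kinesin, had 9 against 1.16 with 3 ATAC regions, and MIA3, which exports collagen from the endoplasmic reticulum, had 8 against 1.10. SLC30A10 had 8 against 1.09, in a locus with EPRS1, a tRNA synthetase gene. CHML, a Rab escort protein gene, had 9 against 0.969 in a locus with OPN3 and KMO, and CDKN2AIP, a partner of ARF, had 8 against 0.948. KCTD4, SERTAD4, POPDC3 and HNRNPA1L3 complete the 25, with 9, 9, 8 and 5 HOXD13-HA regions. With the gene body alone as the window, 12 of the 25 genes had no HOXD13-HA region, and within 10 kb ZNF281 and KCTD4 had none, so these places belong to loci more than to genes.

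Open genes without HOXD13-HA were shorter than open genes with HOXD13-HA and stood in more crowded stretches of the genome. Their median length was 84.9 kb, against 270 kb for open genes with HOXD13-HA, and a median of 20.5 protein-coding genes lay within 500 kb, against 7 for open genes with HOXD13-HA. Median ATAC counts were 21 against 24. The median expected HOXD13-HA count was 2.52 against 5.63, so by size alone a count of 0 was likelier in the genes without. Between 50 and 500 kb from open genes without HOXD13-HA there were 8.19 HOXD13-HA regions per 100 ATAC regions. Around open genes with HOXD13-HA there were 21.3, and the comparison was not matched for the number of neighbouring genes. Of the open genes with at most 10 protein-coding genes within 500 kb 2.98% had no HOXD13-HA region (20 of 671), while with 21 or more it was 31.7% (44 of 139). The share was 29.2% at gene lengths up to 100 kb, 7.28% at 100 to 300 kb and 2.33% above 300 kb. Length and crowding were not separated here. Chromosome 19 held 25 of its 42 open genes without HOXD13-HA (59.5%), against 63 of 975 elsewhere (6.46%). Among the chromosome 19 genes were JUNB, an AP-1 factor, STK11, a kinase that acts on AMPK, and SBNO2, named here after their values were seen.

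Ordered by expected count, AGAP1, SLC24A3, ANXA8, ACTR3C and TMEM132B came first. AGAP1 (chr2:235494043-236131793), which regulates Arf GTPases, had 29 ATAC regions and 20 A375-GFP K27ac regions with 0 HOXD13-HA regions against 12.3 expected. The nearest HOXD13-HA region lay 119541 bp from the gene. SLC24A3 (chr20:19212642-19722926), a sodium, calcium and potassium exchanger, had 29 ATAC and 10 K27ac regions against 10.1 expected HOXD13-HA regions, and ACTR3C had 30 and 12 against 9.01. TMEM132B and DSCAML1 had 22 ATAC regions each, against 8.39 and 7.07 expected, with 1 and 11 K27ac regions. These genes were chosen for their count of 0, so the distance to the expected count is a description.

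Some open genes without HOXD13-HA carried many K27ac regions. CLEC16A, which acts in mitophagy, had 96 A375-GFP K27ac regions and 26 ATAC regions against 5.13 expected HOXD13-HA regions. SMG6, an endonuclease of nonsense-mediated decay, had 87 K27ac and 25 ATAC regions against 5.14, and ZNF664-RFLNA had 48 and 28 against 7.06. The shNTC replicates, whose K27ac lists are shorter, gave 22 and 13 regions at CLEC16A, 33 and 25 at SMG6, and 21 and 15 at ZNF664-RFLNA. All other K27ac counts of this paragraph are those of A375-GFP. Genes of the contractile and cytoskeletal machinery were among the 25 as well: CALD1, the actin-binding caldesmon, had 35 K27ac and 23 ATAC regions, and PPP1R12B, a myosin phosphatase subunit, had 34 and 28. CTIF, a translation factor of the cap-binding complex, had 34 and 28, GNG7, a G protein subunit, 20 and 30, and ADAMTS2, which trims procollagen, 4 and 24. Just inside the threshold of 20 ATAC regions stood LCN8, LCN6 and LCN10, which share a locus, and just outside it CHN1, ARMC2 and ATP11A with 19.

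A group of these genes has near-identical copies in the genome, and their values are uncertain. SRGAP2, SRGAP2B and SRGAP2C, a regulator of the cytoskeleton and its human-specific copies, had 42, 32 and 27 ATAC regions and 0 HOXD13-HA regions, and SRGAP2 was the 1 gene with 40 or more ATAC regions and none. NOTCH2, a receptor, and NOTCH2NLB, its partial copy, had 26 and 20 ATAC regions. SRGAP2B, SRGAP2C, NOTCH2NLB, PDE4DIP and ANXA8 had 0 A375-GFP K27ac regions, against 51, 47, 53, 13 and 14 in the first shNTC replicate. With CACNA1H, named after its values were seen, they are the 6 of 88 without A375-GFP K27ac, and 31.6% of the 19 open genes without A375-GFP K27ac also lacked HOXD13-HA. The HOXD13-HA and A375-GFP K27ac files held 2 and 0 regions outside the autosomes and X, against 3266 in the ATAC file, so the lists were not all filtered alike. The part of this in the missing HOXD13-HA regions was not tested. With the 6 genes without A375-GFP K27ac left out, 82 open genes had no HOXD13-HA region, and SRGAP2 and NOTCH2 are still among these.

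Among the gene lists, counted beside a background of 4.5% rich genes and a sum of 0.968 times expected over all genes, several stood above 1. Limb patterning genes summed to 1.78 times expected, with 7 of 34 rich. SALL4 had 6 HOXD13-HA regions against 1.10 expected, BMP2, a bone morphogenetic ligand, 5 against 0.873 and TBX4, a hindlimb factor, 7 against 1.42. RSPO2, a Wnt amplifier, had 0 against 2.17, and SALL1 and TBX2 had 0 as well. With the number of neighbouring genes in the regression the limb sum was 1.21 times expected. TGF-beta and BMP genes stood at 1.44 with 7 of 28 rich, among them TGFBR2, a receptor, with 8 against 2.05. With the gene body alone as the window the sum of this list was 1.07 times expected.

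Angiogenesis factors and receptors stood at 1.83 with 7 of 26 rich: KDR, the main VEGF receptor, had 5 HOXD13-HA regions against 1.23 expected, FGF2, a growth factor, 6 against 1.67, and THBS1, an inhibitor of vessel growth, 5 against 1.30. PGF, PDGFB and ANGPTL4, all secreted factors, had 0. With the number of neighbouring genes in the regression the angiogenesis sum was 1.50 times expected. MAPK feedback genes stood at 1.88 with 4 of 19 rich, and at 1.385 with the number of neighbouring genes in the regression. DUSP6, a phosphatase of ERK, had 5 against 0.956, ETV1, an ETS factor, 8 against 2.05, and EPHA2, an ephrin receptor, 6 against 1.69. Undifferentiated and invasive melanoma genes stood at 1.71 with 6 of 25 rich, WNT5A with 6 against 1.40 and FOSL2 with 5 against 1.19, while ZEB1, ITGA3 and AXL had 0. Melanocyte genes stood at 1.79 with 3 of 21 rich, and with a median ratio of 0.958. With regions of −log10 q of at least 10 alone, the invasive melanoma sum was 1.33 times expected and the melanocyte gene sum 1.22. Adenosine pathway genes stood at 1.23 with 3 of 15 rich, and immune checkpoint genes at 1.05 with 1 of 16 rich.

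Among the lists of cells that melanoma cultures do not hold, those of T cells and endothelium gave values of the same size. T cell markers summed to 2.05 times expected, largely through PTPRC with 10 HOXD13-HA regions against 1.87, and endothelial markers to 1.96. The melanocyte markers stood at 1.94, largely through MITF and TYRP1, with a median ratio of 0.933 over the 10 genes and a sum of 1.29 times expected at −log10 q of at least 10. Sums were, for fibroblast markers, 1.49 times expected and, for hepatocyte markers, 1.20. The keratinocyte markers stood at 0.911 with 0 of 8 rich, and at 0 to 2.00 over the alternative settings. These lists hold 6 to 10 genes each. The sums of solute carriers (1.07), axon guidance genes (1.08), FOX factors (1.02), SOX factors (1.15), chemokine ligands (0.988) and collagens (0.936) were near that of all genes. Of the axon guidance genes, however, 6 of 38 were rich (15.8%), against 4.5% of all genes. In the other lists named with them the rich share was 0 to 6.82%.

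Several lists, genes of basic cell upkeep among them, summed to fewer HOXD13-HA regions than expected. Ribosomal protein genes summed to 0.652 times expected with 0 of 80 rich, and proteasome subunit genes to 0.538 with 0 of 39 rich. Over the alternative settings their highest values were 0.858 and 0.823. Zinc finger ZNF genes stood at 0.756 with 7 of 477 rich, and at 0.904 with chromosome in the regression. RPS14, RPL13A and RPL28 had 19 ATAC regions each and 0 HOXD13-HA regions. Antigen presentation genes outside the MHC, the chromosome region of the HLA genes, stood at 0.550 with 0 of 16 rich. CD74, a chaperone of MHC class II, had 0 HOXD13-HA regions against 1.29 expected with 16 ATAC regions. Housekeeping genes stood at 0.723 with 1 of 15 rich, and at 1.51 with the gene body alone. Olfactory receptor genes, which are silent outside the nose, stood at 0.515 with 0 of 390 rich. Clustered protocadherins stood at 0.446 with 0 of 53 rich, on 4 different regions, and at 0.862 with the number of neighbouring genes in the regression. The expected sum was 78.2 over the 80 ribosomal protein genes and 216 over the 390 olfactory receptor genes. Rich calls need at least 5 regions and were rarer at short genes, 1.61% of genes up to 10 kb long. A count of 0 rich genes is thus not by itself a depletion.

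Core histone genes stood at 1.71 times expected, with 3 of 63 rich on 15 different regions, and at 0.806 with regions of −log10 q of at least 10 alone. Long adhesion genes depended on how the expectation was set. Against the regression, contactin and CNTNAP genes stood at 0.418, IgLON genes at 0.535 and cadherins at 0.759, while against the mean of genes of like length and ATAC count they stood at 1.12, 1.42 and 1.24. Among the IgLON genes, OPCML had 3 HOXD13-HA regions against 25.1 expected with 44 ATAC regions, and LSAMP had 17 against 14.3 with 40.

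**Figure D5:**
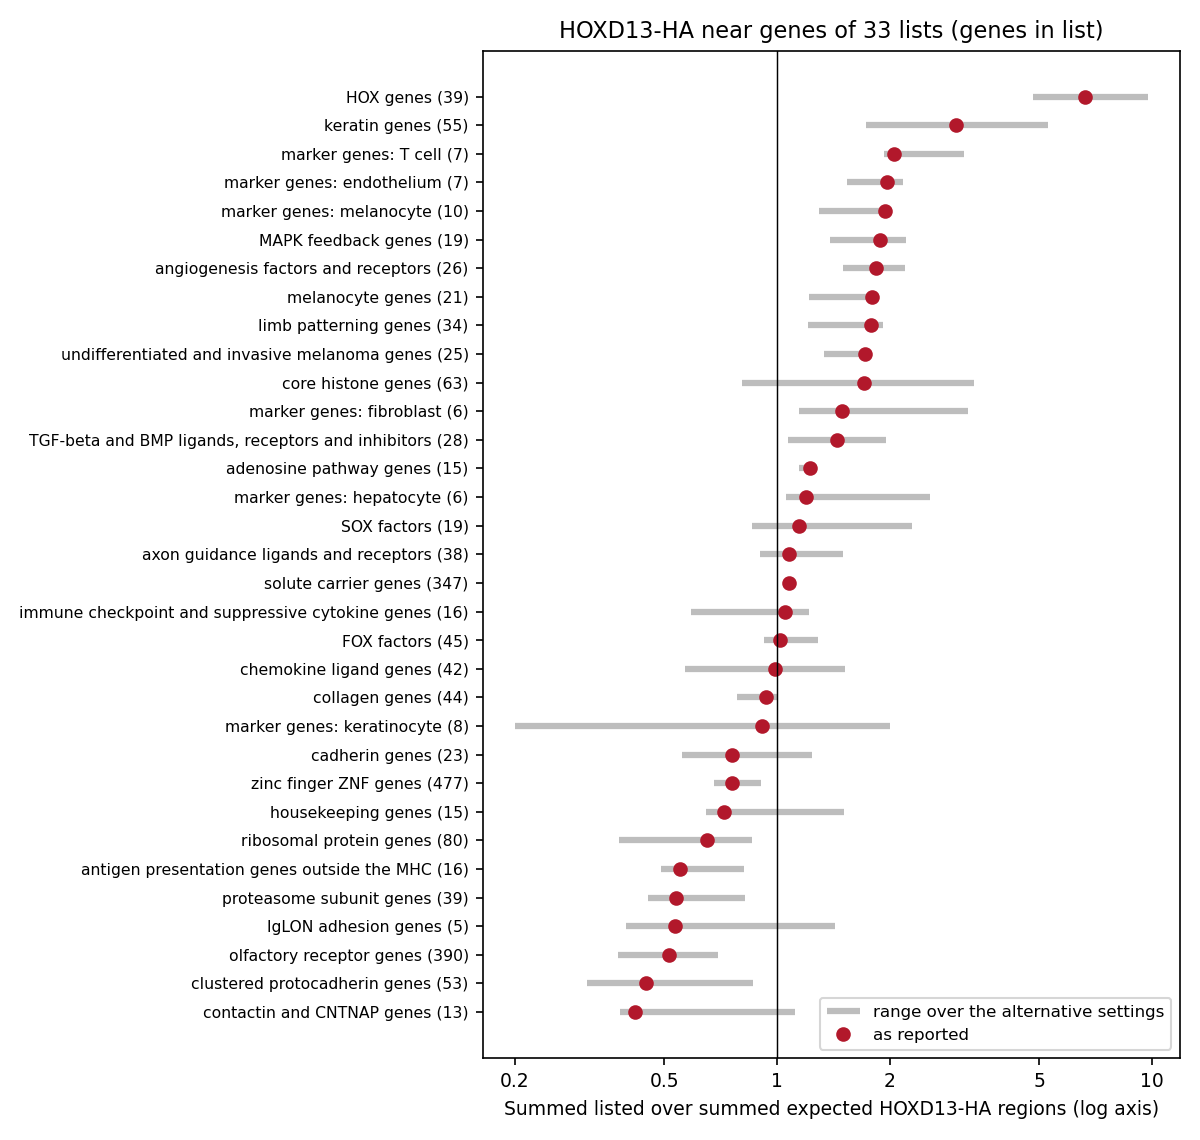
Summed listed over summed expected HOXD13-HA regions (horizontal, log axis; the vertical line is 1) of 33 gene lists, with the number of genes in parentheses. Points are the values in the text and grey lines the range over the alternative settings, drawn from 0.2 where the lowest is 0 (keratinocyte markers). HOX genes lie farthest right at 6.63, and cadherin, IgLON, contactin and core histone genes are among the lists whose range crosses 1.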

How the data were processed

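Region lists of 15 samples were used. Reads went through deepTools, MACS2, SAMtools, Bowtie2 and Trim Galore on hg38, in an order not given in the sources used here, per the submitters' processing notes, which name no versions or settings. Each deposited list gives, per region, a score, the fold enrichment (a ratio) and −log10 p and −log10 q, all computed by the authors' caller. The deposited 10th column, the summit's offset, was used in 1 alternative.

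Regions on the autosomes and X were counted by midpoint in the windows of RefSeq protein-coding genes (GRCh38.p14), gene body and 50 kb on both sides. Expected counts came from a negative binomial regression (statsmodels 0.14.6) over all 19974 genes on log window length and log(ATAC count + 1), tested on simulated data. Region overlap needed 1 bp. Genes were ordered by the Pearson residual. A gene sharing at least 50% of its HOXD13-HA regions with one already taken joined its locus, and the first 25 loci were named. Open genes without HOXD13-HA were ordered by expected count. In each list the 3 members with the highest and up to 3 with the lowest residual could be named. Members and lists were chosen with earlier results of these data known. Alternatives changed the window, the point, the q threshold, the expectation, its covariates and both definitions. Strand came from RefSeq promoters (15812 genes). No genome sequence was used, so motifs were not counted at summits.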

Additional observations from a re-analysis of the deposited data

How the results depend on the processing

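The number of HOXD13-rich genes, 898, was 359 with 10 kb windows, 2098 with 100 kb, 281 with the gene body alone, 69 with regions of −log10 q of at least 10 in both lists, 540 at 3 times expected and 125 at 10 regions. Of the 898, 296, 772, 224 and 46 were also called under the first 4. It was 853 to 965 with summits, class means, Poisson regression, K27ac, gene density or chromosome as covariates, or without the MHC. The number of open genes without HOXD13-HA, 88, was 19 with 10 kb windows, 999 with 100 kb, 15 with the gene body alone, 2666 at 10 ATAC regions and 1 at 40. At −log10 q of at least 10 it was 62, of which 12 were among the 88. The larger windows hold more regions per gene, and the thresholds of 5 and 20 regions were kept.

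With the gene body alone the ratio was 0 for CD55, ZNF281, HOXA6, CHML, KCTD4, CDKN2AIP, SERTAD4, RGS2, FJX1, HNRNPA1L3, POPDC3 and GJA4, and with 10 kb windows it was 0 for ZNF281 and KCTD4, which have no region that near. Against class means, cadherins stood at 1.24, contactin and CNTNAP genes at 1.12 and IgLON genes at 1.42, and core histone genes stood at 0.806 at −log10 q of at least 10. The cause was not tested. Covariates for gene density and chromosome, the list alternatives and the GC weighting were chosen after seeing the data. Motif counts at summits were not run. No paired analysis was possible because HOXD13-HA and A375-GFP ATAC had 1 library each. The lists hold no read counts, so depth limits every count of 0 in an unknown way.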

Other observations

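The single strongest HOXD13-HA regions did not gather at HOXD13-rich genes. Of the 100 regions with the highest fold enrichment, 15 lay in windows of rich genes (15.0%), against 17.2% of all 29176 regions. In open chromatin of the GFP cells lay 33 of the 100, against 34.1% of all regions. Of the 6918 regions with −log10 q of at least 10, 18.4% lay in windows of rich genes and 49.3% in open chromatin. The strongest of all, of 40.2-fold enrichment at chr11:131997016-131998924 (hg38), lay in the window of NTM, an adhesion gene of the IgLON family, and overlapped neither ATAC nor K27ac. NTM had 9 HOXD13-HA regions against 22.6 expected with 48 ATAC regions. The second, of 31.2-fold enrichment on chromosome 13, lay in no gene window. Among the 10 strongest, 1 lay at a rich gene, PKDCC, a secreted tyrosine kinase, at 21.8-fold enrichment. These genes are named because their values were seen.

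Regions in no gene window numbered 8826 (30.3% of the list). Of these 32.4% overlapped ATAC and 15.3% K27ac, against 33.7% and 30.1% of the regions in windows of rich genes. In windows of no rich gene the shares were 35.2% and 23.6%.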
